A study of Mus musculus with 48 samples.

Results

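Complement components and receptors were followed in 48 mouse soft-tissue sarcomas through 10 genes chosen by name: C1qa, C1qb, C1qc, C2, C3, C4b, Cfb, Serping1, C3ar1 and C5ar1. All 10 were found by Ensembl identifier among the 36854 genes of the count table, all 10 passed the filter on low counts in every fit, and the lowest count of any of them in any tumour was 33. Messenger RNA was captured with oligo-dT beads from whole tumour pieces, so the values mix tumour cells with the host cells among them, and fewer cells of a type cannot be told apart from less RNA per cell. The question was how radiation, an antibody against the inhibitory T cell receptor PD-1, and their combination changed these genes, and whether primary and transplanted tumours differed.

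The 32 primary tumours (p53/MCA sarcomas) arose in the gastrocnemius of p53FL/FL mice aged 6 to 10 weeks, in which a locally injected adenovirus carrying Cre recombinase deleted the floxed p53 alleles in the cells it reached followed by 300 µg of the carcinogen MCA. For the 16 allografts, 50000 cells of the p53/MCA sarcoma line 402230 were placed with matrigel in that muscle of syngeneic mice, so that all allografts share 1 tumour of origin while each primary tumour is its own. The strain background was 129/SvJae throughout. Every mouse received 200 µg of either an isotype control or muDX400, a murine anti-PD-1 antibody, followed by 0 or 20 Gy to the tumour-bearing hind limb, and tumours were taken on day 3. This gave 4 groups of 4 allografts and 4 groups of 8 primary tumours. Totals ran from 31810461 to 54008259 counts per tumour. The labels do not say whether the tumours of a group came from separate litters or treatment days, so p-values measure the spread between these tumours. Replicate numbers used below were given in the order of the records within a group, only name a tumour and pair none.

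Complement is a cascade of plasma and tissue proteins. C1q, assembled from the products of C1qa, C1qb and C1qc, recognises antibody and dying cells and starts the classical pathway, in which C4 and C2 form an enzyme that cleaves C3. Factor B (Cfb) builds the corresponding enzyme of the alternative pathway, Serping1 encodes the C1 inhibitor that blocks the C1 proteases, and the fragments C3a and C5a act on the G-protein-coupled receptors encoded by C3ar1 and C5ar1. The liver makes most circulating complement, while C1q and both receptors are typical products of macrophages and other myeloid cells.

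The genes lie in clusters. In the GENCODE M21 annotation of GRCm38 (mm10), C1qb, C1qc and C1qa are neighbours on the minus strand of chromosome 4 (chr4:136880129-136886187, chr4:136889804-136893065 and chr4:136895917-136898803). C4b (chr17:34728380-34743882), Cfb (chr17:34856374-34862518) and C2 (chr17:34862604-34898265) lie together on chromosome 17, with C3 farther along it (chr17:57203970-57228136). Serping1 is on chromosome 2 (chr2:84765387-84775444), C3ar1 on chromosome 6 (chr6:122847138-122856161) and C5ar1 on chromosome 7 (chr7:16246743-16259540). All 10 are protein-coding genes, and each value is a count over the gene's exons. A read-through gene model, Gm20547, shares 79.5% of the exon bases of Cfb and 42.8% of those of C2 on the same strand, so how the counting divided those reads makes the levels of Cfb and C2 uncertain; counts of Gm20547 were not used here. C4b has a near-identical copy, C4a, which stayed at or below 1.75 CPM (counts scaled to a library of fixed size) in every tumour; reads shared by both genes are also uncertain.

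Promoter windows of 300 bases (250 before and 50 after the start site) were found in RefSeq (GRCm38.p6) for 5 of the 10 genes. Among the 10, the genes of the C1q chains as a set followed each other most closely across tumours. Windows are shown for C1qb and C1qc and for C3ar1, which rose in every comparison of 20 with 0 Gy within an antibody arm. They lie at chr4:136886151-136886450, chr4:136892865-136893164 and chr6:122856108-122856407, are written 5′ to 3′ on the gene's strand (minus in each case), and capitals mark the single motif match.
C1qb: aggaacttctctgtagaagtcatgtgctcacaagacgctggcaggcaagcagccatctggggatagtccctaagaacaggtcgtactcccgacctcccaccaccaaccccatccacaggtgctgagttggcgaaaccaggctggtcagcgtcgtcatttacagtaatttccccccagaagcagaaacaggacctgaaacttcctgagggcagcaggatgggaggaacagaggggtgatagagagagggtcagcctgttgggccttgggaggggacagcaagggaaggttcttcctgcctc
C1qc: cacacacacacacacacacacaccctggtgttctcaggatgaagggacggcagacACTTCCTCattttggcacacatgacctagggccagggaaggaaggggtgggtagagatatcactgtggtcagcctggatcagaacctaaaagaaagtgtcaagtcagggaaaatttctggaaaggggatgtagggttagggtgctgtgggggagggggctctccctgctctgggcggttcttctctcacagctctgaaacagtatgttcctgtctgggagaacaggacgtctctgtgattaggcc
C3ar1: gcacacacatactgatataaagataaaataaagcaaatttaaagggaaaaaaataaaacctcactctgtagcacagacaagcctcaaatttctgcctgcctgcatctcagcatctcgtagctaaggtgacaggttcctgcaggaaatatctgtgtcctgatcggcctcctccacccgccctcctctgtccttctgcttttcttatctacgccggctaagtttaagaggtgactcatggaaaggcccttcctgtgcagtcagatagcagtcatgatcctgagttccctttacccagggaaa
The letters searched for on both strands of the 5 windows were the interferon-stimulated response element core (GAAA, any pair of bases, GAAA), TTCNNNGAA (a gamma-activated site core) and GAGGAAGT (a core bound by the myeloid factor PU.1). The only match was GAGGAAGT in C1qc, read as ACTTCCTC on the strand shown, at position -195 from the start site. Among 32851 promoter windows of the same length, 3.443%, 8.298% and 3.202% hold these letters. No other window of the 5 holds them, which says nothing about binding elsewhere.

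Per kilobase of exon, the C1q chains were far above the other genes. In untreated primary tumours (0 Gy with isotype, n = 8), C1qa stood at 455 ± 152 CPM per kb (SD) and C1qb at 381 ± 133.1. Both were measured in the same tumours, so these SDs do not measure their difference. C1qa had the higher mean in every group. C1qc followed at 192 ± 61.8 CPM per kb and Serping1 at 41.8 ± 26.7. C4b (19.5 ± 9.45), C3ar1 (16.4 ± 4.94), C3 (12.9 ± 7.06) and C5ar1 (10.9 ± 3.15 CPM per kb) formed a group whose neighbours lie within 1 SD of each other. C2 (1.07 ± 0.656) and Cfb (0.733 ± 0.577) were lowest, a place that the exon bases shared with Gm20547 leave uncertain. In untreated allografts (n = 4) the order was the same but for C3, C4b and the lowest pair: C3 stood at 53.7 ± 33.7 CPM per kb, level with Serping1 (57.4 ± 35.7), C4b (11.04 ± 6.03) stood behind C3ar1 and C5ar1, and Cfb and C2 were at 0.756 ± 0.338 and 0.707 ± 0.235. All later levels are CPM after TMM scaling (a correction for library composition), not per length.

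**Figure D1:**
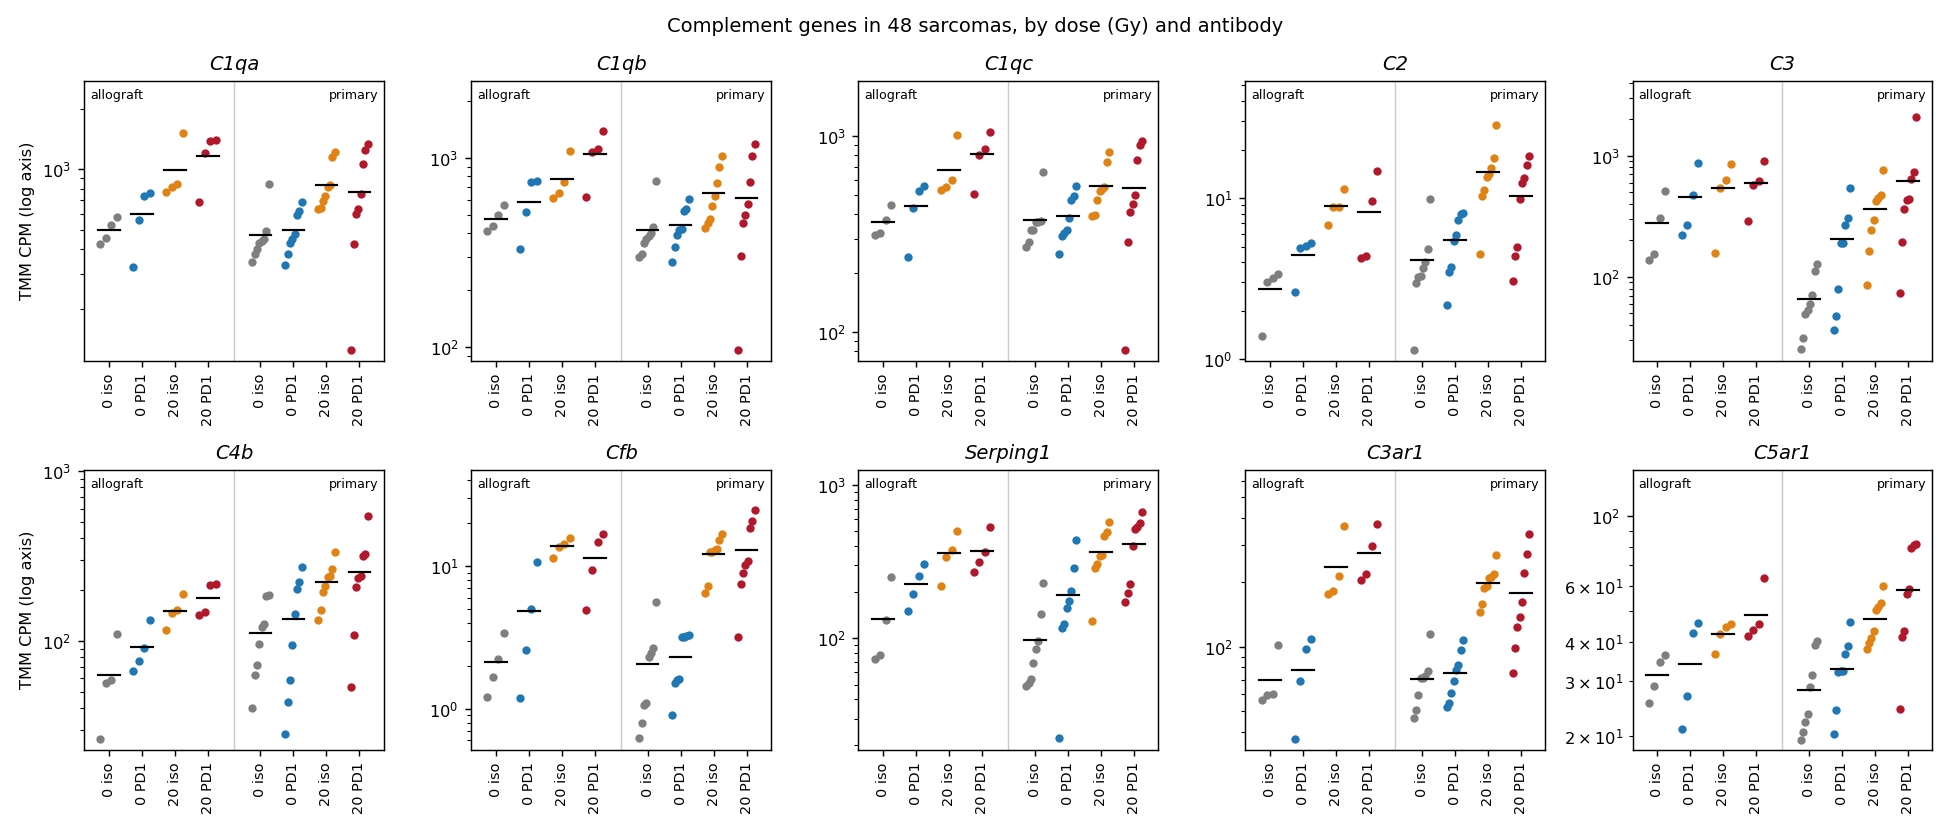
Level of each complement gene in every tumour, as TMM CPM on a log axis, by dose in Gy (0 or 20) and antibody (iso, isotype; PD1, anti-PD-1), with allografts on the left (4 per group) and primary tumours on the right (8 per group); each point is a tumour and each bar a group mean. C3ar1 and Cfb separate 0 Gy from 20 Gy with isotype in both kinds of tumour, and untreated primary tumours hold the lowest C3, 25.3 to 127.7 CPM.

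After 20 Gy complement genes rose in both kinds of tumour, C3ar1 and Cfb in the most comparisons. A gene is called here at an adjusted p below 0.05 in edgeR's quasi-likelihood test, with Benjamini-Hochberg adjustment over all genes tested. With isotype antibody, 5 of 10 were called higher in allografts (4.40% of all 17746 genes tested were called higher, 5.14% in either direction) and 7 of 10 in primary tumours (7.85% of 17770 genes higher, 14.5% in either direction). With anti-PD-1, 1 of 10 was called higher in allografts (3.13% of genes higher, 3.96% in either direction) and 3 of 10 in primary tumours (6.06% and 7.92%). None was called lower, and the fitted log2 difference was positive for all 10 genes in all 4 comparisons. Its median over the 10 genes was 1.15 and 0.89 in allografts and 1.26 and 0.92 in primary tumours (isotype, then anti-PD-1), against medians over all genes between -0.02 and 0.02. C3ar1 was called in all 4 comparisons, Cfb in 3, C2, Serping1 and C5ar1 in 2, C1qa, C3 and C4b in 1, and C1qb and C1qc in none. Where groups are said below not to overlap, the share of all genes that separate likewise was not counted.

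**Figure D2:**
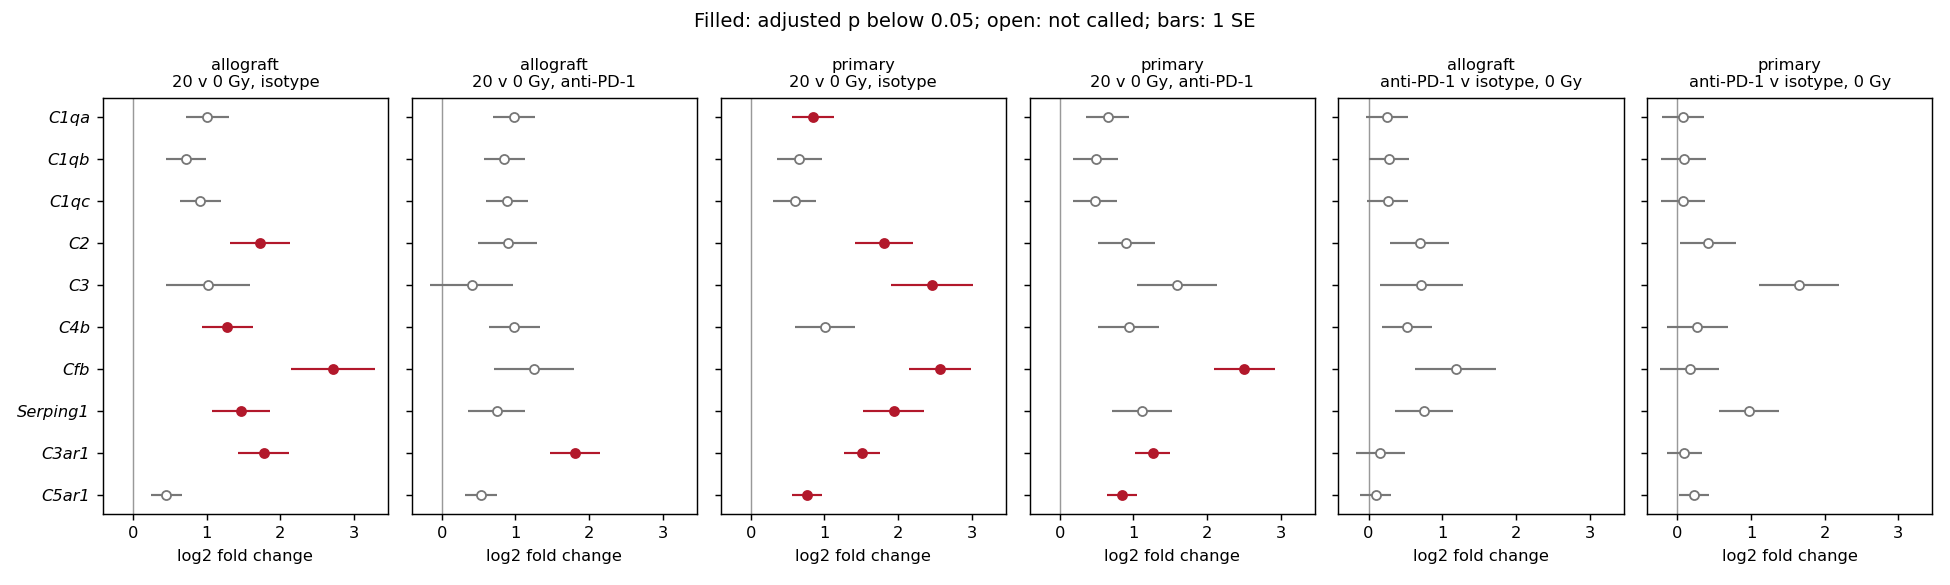
Log2 fold change of each complement gene (x axis) for 20 against 0 Gy in each antibody arm and for anti-PD-1 against isotype at 0 Gy, from edgeR's quasi-likelihood fit; bars are 1 SE and filled points have an adjusted p below 0.05. The radiation panels hold 5, 1, 7 and 3 filled points from left to right, and the anti-PD-1 panels hold none.

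The C3a receptor gene C3ar1 rose in both arms of both kinds of tumour. In the allografts with isotype, the 4 unirradiated tumours stood at 60.2, 56.1, 102.4 and 59.4 CPM and the 4 irradiated ones at 369, 183, 177 and 215 CPM. The groups did not overlap, and the log2 difference was 1.78 (SE 0.34, adjusted p 0.00808; edgeR, here and for each adjusted p that follows). With anti-PD-1, C3ar1 ran 69.2, 108.5, 97.9 and 37.0 CPM at 0 Gy and 295, 375, 205 and 219.8 CPM at 20 Gy, again without overlap (log2 difference 1.81, SE 0.34, adjusted p 0.0117). In primary tumours with isotype, C3ar1 had a low, median and high value of 46.5, 71.6 and 115.3 CPM at 0 Gy and of 145, 201 and 268 CPM at 20 Gy. All 8 irradiated tumours lay above all 8 unirradiated ones (log2 difference 1.51, SE 0.24, adjusted p 0.000121). In the anti-PD-1 arm of the primary tumours, C3ar1 went from 52.2, 73.5 and 107.6 CPM to 75.3, 149.5 and 338 CPM, and 6 of 8 irradiated tumours lay above every unirradiated one (log2 difference 1.26, SE 0.24, adjusted p 0.00162). C3ar1 was called whichever single tumour was left out, in 8 of 8 and 8 of 8 fits in allografts and in 16 of 16 and 16 of 16 in primary tumours. In allografts with anti-PD-1 the call was lost, at a like fold, when only the groups compared were fitted (log2 difference 1.82, SE 0.36, adjusted p 0.0743). It was lost there also with macrophage markers as a covariate. In allografts with isotype it was lost with the first digit of the number in the sample title as a covariate (both below).

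C5ar1, the C5a receptor gene, moved less. In primary tumours with isotype it had a low, median and high value of 19.5, 26.1 and 40.3 CPM at 0 Gy and of 37.8, 46.9 and 59.9 CPM at 20 Gy. The log2 difference was 0.76 (SE 0.20, adjusted p 0.0116), and 6 of 8 irradiated tumours lay above the unirradiated range. With anti-PD-1 the C5ar1 difference in primary tumours was 0.84 (SE 0.20, adjusted p 0.0106), from 20.4, 32.3 and 46.0 CPM to 24.4, 57.6 and 81.9 CPM. In allografts with isotype, C5ar1 ran 25.6, 36.2, 34.4 and 29.0 CPM at 0 Gy and 45.3, 36.6, 42.4 and 44.5 CPM at 20 Gy. Those groups did not overlap, but the log2 difference of 0.46 (SE 0.21) was not called (adjusted p 0.273), nor was that of 0.53 (SE 0.21, adjusted p 0.18) with anti-PD-1.

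Cfb, the protease of the alternative pathway, had the largest fold among the genes called in allografts. It rose from very low levels, which the exon bases shared with Gm20547 leave uncertain. With isotype its allograft values were 1.67, 2.25, 3.42 and 1.21 CPM at 0 Gy and 11.4, 13.6, 15.9 and 14.2 CPM at 20 Gy. The groups were far apart (log2 difference 2.71, SE 0.57, adjusted p 0.014). In primary tumours with isotype, Cfb went from 0.621, 1.69 and 5.58 CPM (low, median, high) to 6.47, 12.8 and 16.9 CPM, with all 8 irradiated tumours above all unirradiated ones (log2 difference 2.57, SE 0.42, adjusted p 0.000133). In the anti-PD-1 arm of the primary tumours, 7 of 8 irradiated tumours lay above the unirradiated range, 3.17 to 24.6 CPM against 0.903 to 3.28 CPM (log2 difference 2.51, SE 0.41, adjusted p 0.000461). The allografts with anti-PD-1 overlapped, since Cfb ran 4.97, 2.59, 10.8 and 1.19 CPM without radiation and 16.8, 4.90, 9.44 and 14.7 CPM with it. That difference of 1.25 (SE 0.54) was not called (adjusted p 0.218).

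C2, which pairs with C4 in the classical pathway, was called in the isotype arm of both kinds of tumour. Allograft C2 was 3.36, 3.00, 3.20 and 1.39 CPM at 0 Gy and 8.76, 8.77, 6.82 and 11.4 CPM at 20 Gy, without overlap (log2 difference 1.73, SE 0.41, adjusted p 0.024). In primary tumours C2 went from 1.15, 3.49 and 9.85 CPM to 4.49, 13.9 and 28.3 CPM, and 7 of 8 irradiated tumours lay above the unirradiated range (log2 difference 1.81, SE 0.39, adjusted p 0.00199). With anti-PD-1 the C2 differences were 0.89 (SE 0.40, adjusted p 0.23) in allografts and 0.91 (SE 0.38, adjusted p 0.143) in primary tumours, neither called. In those arms 2 of 4 and 5 of 8 irradiated tumours exceeded all unirradiated ones, at 14.7, 4.35, 4.26 and 9.55 CPM against 2.61, 4.93, 5.25 and 5.05 CPM in the allografts.

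C4b, the mouse C4 gene, separated the allograft groups fully in both arms. With isotype the C4b values were 26.6, 56.7, 109.4 and 58.9 CPM at 0 Gy and 151, 146, 189 and 116.5 CPM at 20 Gy (log2 difference 1.28, SE 0.34, adjusted p 0.0439). That call held in 1 of 8 fits that left out 1 tumour and by DESeq2 (adjusted p 0.00749). It was lost when only the groups compared were fitted (adjusted p 0.0893) and in the fit of all 48 tumours (0.289). With anti-PD-1 the C4b values were 90.9, 75.7, 132.8 and 66.0 CPM and then 140.8, 215, 147 and 212 CPM, a log2 difference of 0.99 (SE 0.34) that was not called (adjusted p 0.123). In primary tumours C4b spread more widely: the isotype groups ran 40.4 to 187 CPM (median 107.96) and 132.2 to 333 CPM (median 225), and the difference of 1.01 (SE 0.41) was not called (adjusted p 0.0974). The value with anti-PD-1 was 0.94 (SE 0.41, adjusted p 0.162).

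C3, the component on which all pathways meet, was called by edgeR, of the 4 comparisons of 20 with 0 Gy, in primary tumours with isotype. There C3 went from 25.3, 56.5 and 127.7 CPM (low, median, high) to 86.3, 357 and 755 CPM, and 7 of 8 irradiated tumours lay above all 8 unirradiated ones (log2 difference 2.46, SE 0.56, adjusted p 0.00333). With anti-PD-1 the groups overlapped, at 36.7, 191 and 537 CPM against 73.8, 434 and 2068 CPM, and the difference of 1.59 (SE 0.55) was not called (adjusted p 0.0671). It was called by DESeq2 (1.63, SE 0.52, adjusted p 0.0199) and in edgeR's fit of all 48 tumours (1.58, SE 0.52, adjusted p 0.0396). The tumour at 2068 CPM (replicate 4) also had the highest summed skeletal muscle markers of the series, 95726 CPM; the part of muscle in this value was not tested. In allografts with isotype, C3 ran 137.2, 304, 510.3 and 153 CPM at 0 Gy and 159, 629.7, 856 and 537 CPM at 20 Gy. Of the irradiated allografts, 3 lay above the unirradiated range and 1 did not, and the difference of 1.02 (SE 0.57) was not called (adjusted p 0.376). With anti-PD-1 it was 0.40 (SE 0.56, adjusted p 0.744).

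Serping1, the C1 inhibitor gene, rose in the isotype arms. The allografts stood at 77.5, 131.1, 252 and 73.4 CPM at 0 Gy and at 219, 342, 504 and 378 CPM at 20 Gy, where 3 of 4 irradiated tumours exceeded all unirradiated ones (log2 difference 1.46, SE 0.40, adjusted p 0.0449). This allograft call held in 2 of 8 fits that left out 1 tumour and by DESeq2 (adjusted p 0.00527). It was lost when only the groups compared were fitted (adjusted p 0.0898) and in the fit of all 48 tumours (0.206). In primary tumours Serping1 went from 48.7, 76.7 and 229.8 CPM to 129, 348 and 573 CPM (log2 difference 1.94, SE 0.42, adjusted p 0.00201), with 7 of 8 irradiated tumours above the unirradiated range. With anti-PD-1 the Serping1 differences were 0.75 (SE 0.39, adjusted p 0.311) in allografts and 1.12 (SE 0.41, adjusted p 0.0877) in primary tumours. The latter was called by DESeq2 (1.14, SE 0.40, adjusted p 0.0413) and in edgeR's fit of all 48 tumours (1.10, SE 0.38, adjusted p 0.0496).

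The C1q chains had smaller fitted differences with isotype than most of the other genes. C1qa in allografts with isotype was 426, 525, 581 and 452 CPM at 0 Gy and 1521, 773, 842 and 814 CPM at 20 Gy. The groups did not overlap, nor did they for C1qb and C1qc, but none of the chains was called (log2 differences 1.01, 0.72 and 0.92, SE 0.29, 0.28 and 0.28, adjusted p 0.0581, 0.169 and 0.075 for C1qa, C1qb and C1qc). The chains follow each other closely across tumours, so they are not separate results. In primary tumours with isotype, C1qa went from 344, 436 and 848 CPM to 631, 777 and 1216 CPM, with 2 of 8 irradiated tumours above the highest unirradiated one, and was called (log2 difference 0.84, SE 0.29, adjusted p 0.0454). This call held in 5 of 16 fits that left out 1 tumour, and it was lost without the expression filter (adjusted p 0.072) and with skeletal muscle markers (0.0698), macrophage markers (0.081) or Xist (0.0551) as a covariate. When only the groups compared were fitted, C1qa, C1qb, C1qc and C4b were called there (adjusted p 0.00594, 0.0409, 0.0364 and 0.0216), and no call was lost. In the fit of all 4 primary groups, C1qb and C1qc moved by 0.66 (SE 0.31, adjusted p 0.148) and 0.60 (SE 0.30, adjusted p 0.18). With anti-PD-1 the chains moved by 0.85 to 0.98 in allografts and 0.48 to 0.65 in primary tumours on the log2 scale, none called. DESeq2 called C1qa (adjusted p 0.0156) and C1qc (0.0294) in allografts with isotype, and all 3 chains in allografts with anti-PD-1 (adjusted p 0.019, 0.0413 and 0.034 for C1qa, C1qb and C1qc). A primary tumour given 20 Gy with anti-PD-1 (replicate 5) had the lowest C1q of the 48 tumours, with C1qa at 125.4, C1qb at 96.3 and C1qc at 80.8 CPM, and its summed macrophage markers, 679 CPM, were also the lowest of its group.

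Tumours given both treatments were set against untreated ones (isotype, 0 Gy); these controls are also those of the isotype comparison above, so its values are not independent of those. In allografts given both, 8 of 10 genes were called higher (7.43% of all genes higher, 9.66% in either direction), all but C3 (log2 difference 1.12, SE 0.57, adjusted p 0.246) and C5ar1 (0.63, SE 0.21, adjusted p 0.0783). DESeq2 also called C5ar1 (0.65, SE 0.24, adjusted p 0.0431). When only the groups compared were fitted, C2 and Serping1 were lost (adjusted p 0.0741 and 0.0655). C1qa was at 1382, 1397, 1207 and 690.0 CPM, every tumour above the untreated 426 to 581 CPM (log2 difference 1.23, SE 0.29, adjusted p 0.0148), and the differences of C1qb and C1qc were 1.13 and 1.15 (SE 0.28 for both, adjusted p 0.018 and 0.0177). In a fit of all 48 tumours only Cfb and C3ar1 of the 8 were still called, and with Xist as a covariate C4b, Cfb and C3ar1 were. C1qa, C1qb and C1qc kept like differences but had adjusted p of 0.0528, 0.102 and 0.0857 in the fit of all 48 tumours and 0.0587, 0.0688 and 0.0742 with Xist. In primary tumours 7 of 10 were called higher (8.78% of genes higher, 13.8% in either direction), all but the C1q chains. DESeq2 also called C1qa there (0.78, SE 0.29, adjusted p 0.0428). C2 was lost when only the groups compared were fitted (1.38, SE 0.42, adjusted p 0.0518). The call of C4b (1.21, SE 0.41, adjusted p 0.0476) held in 5 of 16 fits that left out 1 tumour, and its adjusted p was 0.0502 to 0.24 in the 6 alternatives that lost it and 0.0167 to 0.042 in the other 3. The C3 difference was 3.24 (SE 0.58, adjusted p 0.000459), that of Cfb 2.67 (SE 0.42, adjusted p 0.00013) and that of C5ar1 1.07 (SE 0.21, adjusted p 0.000846). Without the primary tumour low in C1q (replicate 5), all 10 genes were called. Calls over all genes in the fits that left out 1 tumour ran from 1761 to 3223.

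The allograft calls rest on few tumours. With isotype, leaving out 1 tumour gave 1 to 5 called genes: Cfb was called in 5 of 8 such fits, C2 in 4, Serping1 in 2 and C4b in 1, and without untreated replicate 1, 2 or 4 C3ar1 alone was called. The isotype allograft groups also differ in the number in the sample title (title number) and in Xist, the RNA of the inactive X chromosome. That number begins with 4 in 0 of 4 tumours at 0 Gy and 3 of 4 at 20 Gy. Xist exceeds 10 CPM in 1 of 4 and 3 of 4. The Xist split was the same in allografts with anti-PD-1 (1 of 4 and 3 of 4) and in the combination against untreated allografts. In primary tumours Xist exceeded 10 CPM in 5 of 8 and 2 of 8 with isotype and in 3 of 8 and 3 of 8 with anti-PD-1. With the first digit as a covariate 0 of 10 genes were called (C3ar1 1.43, SE 0.39, adjusted p 0.0968; Cfb 2.71, SE 0.68, adjusted p 0.0761), and with Xist as a covariate 2 were (Cfb and C3ar1), the same 2 as in a fit of all 48 tumours. Calls over all genes fell too, from 912 of 17746 without a covariate to 196 with the digit. In the fit of all 48 tumours they were 372 of 19327. What the first digit stands for is not stated. Without irradiated replicate 4, 2 genes were called, and without irradiated replicate 2 or 3, 3 were. With anti-PD-1 the count ran from 1 to 4: the C1q chains were also called without irradiated replicate 4, and Cfb without unirradiated replicate 3. In the combination it ran from 3 to 8, with 3 called without untreated replicate 1 or 4 and 5 without untreated replicate 2. In primary tumours leaving out 1 tumour gave 6 to 7 called genes with isotype and 3 to 4 with anti-PD-1.

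Anti-PD-1 moved none of the genes past the test at either dose. edgeR called 0 of 10 in allografts at 0 and 20 Gy and 0 of 10 in primary tumours at 0 and 20 Gy, where 0 genes were called in all (0% of those tested); at an unadjusted p below 0.05 the counts among the 10 were 1, 0, 2 and 0, and DESeq2 also called 0 in each. The largest value belonged to C3 in unirradiated primary tumours, which stood at 207 ± 166 CPM with anti-PD-1 and 66.1 ± 36.3 CPM with isotype (n = 8 each), 5 of 8 treated tumours lying above all isotype tumours. Its log2 difference of 1.65 (SE 0.55) had an unadjusted p of 0.00505 and an adjusted p of 0.9998. Serping1 in the same tumours differed by 0.98 (SE 0.41, adjusted p 0.9998), at 191 ± 125.1 against 97.1 ± 62.1 CPM, and Cfb in unirradiated allografts by 1.18 (SE 0.55, adjusted p 0.9999). C3ar1 differed by 0.09 (SE 0.24) in unirradiated primary tumours and 0.16 (SE 0.33) in unirradiated allografts, against 1.26 to 1.81 for radiation.

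Radiation and anti-PD-1 were not shown to interact. The interaction of dose and antibody was called for 0 of 10 genes in either kind of tumour, and 0 genes were called in all (0%); no gene of the 10 had an unadjusted p below 0.05, and DESeq2 called 0 of the 10. The interaction value was lowest for Cfb in allografts, -1.46 (SE 0.76, adjusted p 0.864), and for C2 in primary tumours, -0.90 (SE 0.54, adjusted p 0.971). These SEs leave wide intervals, so an unlike response in the antibody arms was not detectable here rather than absent.

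Untreated primary tumours differed from untreated allografts in C3. All 8 primary tumours (25.3 to 127.7 CPM, 66.1 ± 36.3) lay below all 4 allografts (137.2 to 510.3 CPM, 276 ± 173), and the log2 difference was -2.07 (SE 0.43, adjusted p 0.0108). It was the only one of the 10 called (3.99% of 17357 genes were called lower in primary tumours and 10.0% in either direction), and it was called in all 12 fits that left out 1 tumour. C4b leaned the other way, at 110.8 ± 53.8 against 62.9 ± 34.3 CPM, without passing the test (0.81, SE 0.44, adjusted p 0.262), and the C1q chains, C3ar1 and C5ar1 differed by -0.21 to 0.03. Of the T cell markers 5 of 8, and of the monocyte and neutrophil markers 4 of 10, were also called lower in the primary tumours. Of the fibroblast markers 4 of 10 were called higher, where 6.03% of all genes were, with sums of 13122 to 39556 CPM in the primary tumours and 8924 to 12440 CPM in the allografts, and skeletal muscle sums had medians of 2075 and 7451 CPM with 0 of 12 genes called. The part of these cells in the C3 value was not tested. The title number begins with 4 in 8 of 8 of these primary tumours and 0 of 4 of these allografts, so that digit and tumour kind cannot be told apart. After 20 Gy with isotype none of the 10 was called (4.76% of 17624 genes were), C3 differing by -0.56 (SE 0.51, adjusted p 0.583) at 361 ± 211 against 545 ± 291 CPM; 1 of 10 had an unadjusted p below 0.05, and DESeq2 called 0.

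Whether the radiation response differed between tumour kinds was tested over all 48 tumours. The interaction of kind and dose was called for 0 of 10 genes with isotype (0.00517% of 19327 genes were called) and for 0 of 10 with anti-PD-1 (0%); none had an unadjusted p below 0.05, and DESeq2 called 0 of the 10 in both. C3 had the largest value with isotype, 1.47 (SE 0.88, adjusted p 0.562), and Cfb with anti-PD-1, 1.26 (SE 0.69, adjusted p 0.991). A stronger C3 rise in primary tumours was therefore not shown.

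Other genes of the pathway came from a list of 42 complement genes, of which 32 were tested in allografts and 34 in primary tumours. After 20 Gy, 2 of 32 were called higher in allografts with isotype, 1 of 32 with anti-PD-1 and 5 of 32 in the combination, where 4.40%, 3.13% and 7.43% of all genes were. The first 2 of these counts are near the share over all genes and are no result about the list. In primary tumours, 8 of 34 were called higher and 1 lower with isotype, 6 higher with anti-PD-1 and 11 higher in the combination, where 7.85%, 6.06% and 8.78% of all genes were called higher. Among those called were subunits of the complement receptors CR3 and CR4 of phagocytes. Itgax (the alpha chain of CR4) went from 18.1 ± 9.80 to 63.4 ± 16.4 CPM in allografts with isotype (log2 difference 1.83, SE 0.38, adjusted p 0.0127) and from 8.52 ± 2.74 to 34.5 ± 14.0 CPM in primary tumours (2.03, SE 0.31, adjusted p 7.33e-05). Itgb2, their shared beta chain, rose by 1.38 (SE 0.35, adjusted p 0.0321) and 1.25 (SE 0.26, adjusted p 0.00144). Cfp, which encodes properdin, the stabiliser of the alternative pathway enzyme, went from 68.2 ± 29.1 to 167 ± 44.0 CPM in primary tumours with isotype (log2 difference 1.30, SE 0.24, adjusted p 0.000431). With anti-PD-1 Cfp had the smallest p of the list in primary tumours (1.43, SE 0.24, adjusted p 0.000561). C1s2, a C1s protease gene, had the highest log2 difference of the list in primary tumours with isotype, 2.41 (SE 0.57, adjusted p 0.00454), at low levels of 0.383 against 0.0690 CPM. C5ar2, the other C5a receptor, was called in primary tumours with anti-PD-1 at 3.33 ± 1.33 against 1.53 ± 0.524 CPM (1.13, SE 0.33, adjusted p 0.0331). Colec10 was the gene called lower (-4.11, SE 1.11, adjusted p 0.0116), but its unirradiated values reached from 0.0909 to 55.0 CPM with a median of 0.5264, close to the irradiated median of 0.450. Between untreated tumour kinds 2 of 30 were called, both lower in primary tumours (3.99% of all genes were), and after 20 Gy with isotype 2 of 33, 1 in each direction (4.76% of all genes in either); these counts are near the share over all genes and are no result about the list. Clu, a fluid-phase regulator of the terminal pathway, stood in untreated tumours at 51.0 ± 31.2 CPM in primary tumours and 249.6 ± 82.6 CPM in allografts (log2 difference -2.29, SE 0.42, adjusted p 0.00611), and Itgax at 8.52 ± 2.74 and 18.1 ± 9.80 CPM (-1.09, SE 0.31, adjusted p 0.0427). After 20 Gy Vsig4, a macrophage receptor for C3 fragments, stood at 4.97 ± 3.07 CPM in primary tumours and 0.469 ± 0.279 CPM in allografts (3.43, SE 0.61, adjusted p 0.00768). Itgb2 stood there at 159 ± 55.3 and 316 ± 38.6 CPM (-0.95, SE 0.24, adjusted p 0.0409).

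Markers of other cells were read beside these changes. Hepatocyte markers, which would show liver RNA, were not called in any comparison, but 1 allograft given 20 Gy with anti-PD-1 reached a sum of 569.9 CPM over the 11 genes, against a group median of 3.19. All 12 macrophage markers were detected in every tumour, with Csf1r the most abundant (median 393 CPM). With isotype Csf1r stood at 317 ± 92.2 CPM at 0 Gy and 490.4 ± 88.5 CPM at 20 Gy in allografts, but at 431 ± 96.7 and 329.8 ± 125.9 CPM in primary tumours, so it did not follow the summed level there. Their summed level had a median of 1037 CPM (922 to 1396) in untreated allografts and 1874 CPM (1636 to 2531) after 20 Gy with isotype, and of 1438 CPM (1119 to 1972) and 1673 CPM (1196 to 2250) in the primary tumours. After 20 Gy with isotype, where 4.40% of all genes were called higher in allografts and 7.85% in primary tumours, 3 of 12 macrophage markers were called higher in allografts and 6 of 12 in primary tumours. Monocyte and neutrophil markers were called higher for 1 of 10 and 5 of 10, with summed medians of 413 and 1134 CPM in allografts and 194 and 1040 CPM in primary tumours. Of the 15 interferon response genes, 12 and 15 were called higher, with summed medians of 1492 and 5389 CPM in allografts and 955 and 5001 CPM in primary tumours. The median log2 difference of that list was 2.30 and 1.92, above that of the 10 complement genes.

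With the mean of the macrophage markers as a covariate, the genes parted. In primary tumours with isotype, C1qa went from 0.84 to 0.39 (SE 0.15, adjusted p 0.081), C1qb to 0.16 and C1qc to 0.13, while Cfb (2.30, SE 0.41, adjusted p 0.000611), C3 (2.24, SE 0.56, adjusted p 0.00935), C2 (1.78, SE 0.43, adjusted p 0.00664), Serping1 (1.72, SE 0.42, adjusted p 0.00808), C3ar1 (1.24, SE 0.18, adjusted p 9.06e-05) and C5ar1 (0.57, SE 0.17, adjusted p 0.0272) were still called. In allografts with isotype calls over all genes went from 912 to 1033. There C2, Cfb and C3ar1 were still called, with C3ar1 at 1.57 (SE 0.32, adjusted p 0.013), and C4b and Serping1 were not (1.06 and 1.31, adjusted p 0.0557 and 0.0709). In the primary tumours with anti-PD-1 all 3 calls were kept, at 2.24 for Cfb, 0.99 for C3ar1 and 0.64 for C5ar1 (SE 0.40, 0.18 and 0.17, adjusted p 0.00122, 0.00116 and 0.0191). In the allograft combination, where calls over all genes went from 1714 to 396, C2 was still called (2.04, SE 0.44, adjusted p 0.0297) and the other 7 were not. Of those 7, Cfb stood at 1.95 (SE 0.62), C3ar1 at 1.48 (SE 0.37), Serping1 at 1.203 (SE 0.44) and C4b at 1.02 (SE 0.34), and C1qa, C1qb and C1qc at 0.69, 0.48 and 0.56 (SE 0.30, 0.24 and 0.27). In allografts with anti-PD-1 C3ar1 was no longer called (1.40, SE 0.36, adjusted p 0.0958). The covariate is itself expression measured after treatment, so this separates genes by how closely they track those markers and not by cell of origin.

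**Figure D3:**
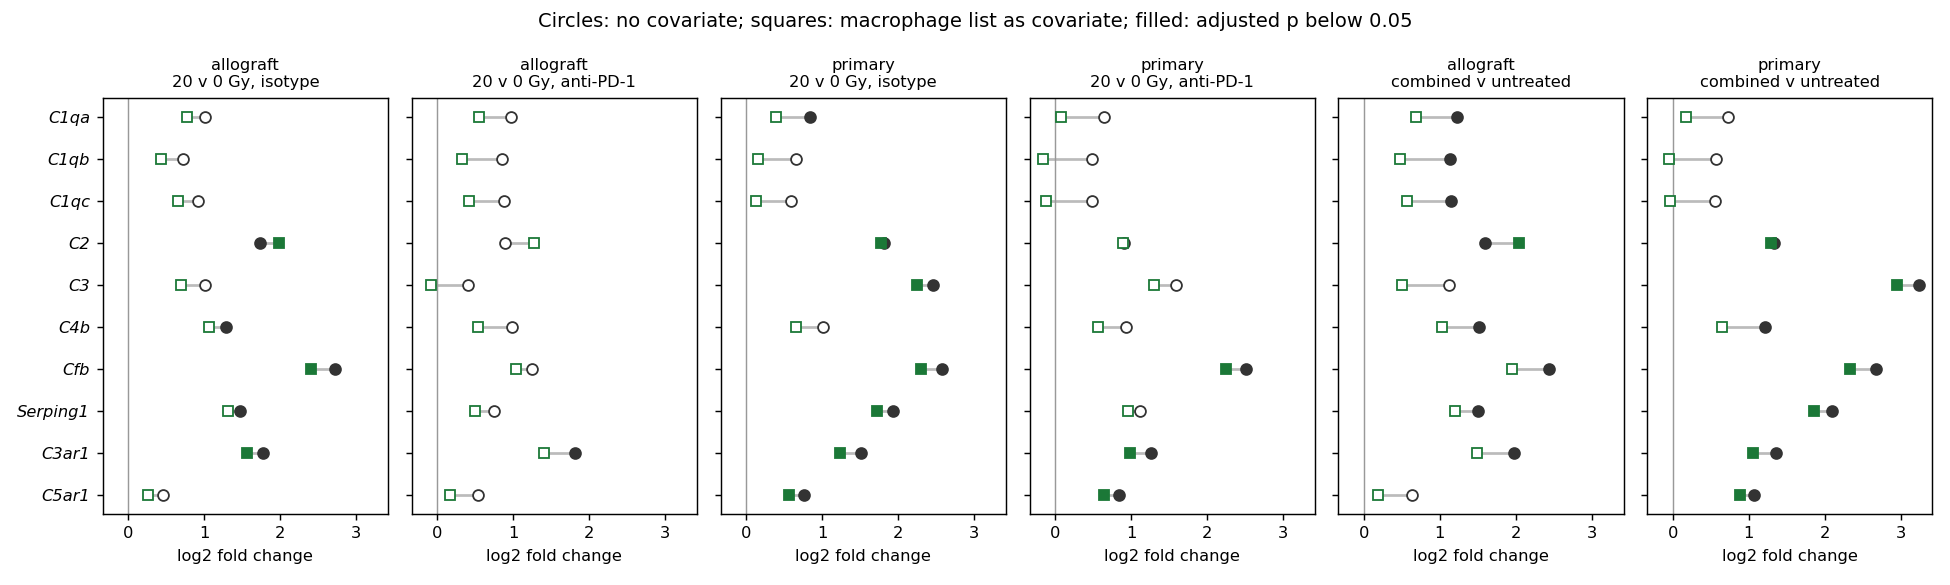
Log2 fold change of each complement gene without a covariate (circles) and with the mean of 12 macrophage markers as a covariate (squares), for 20 against 0 Gy in each antibody arm and for the combination against 0 Gy with isotype; filled symbols have an adjusted p below 0.05 in edgeR. The C1q squares lie nearer 0 than the circles in every panel (C1qb at 0.16 in primary tumours with isotype), while those of C2 move little or to the right.

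Within groups, after group means were subtracted, the genes fell into several patterns. Correlations here are over 48 tumours, on log2 CPM, and are descriptions. C1qa and C1qc had a Pearson r of 0.99, and C1qb had 0.98 with each of them. The genes nearest to the chains apart from each other were Aif1 (0.90 with C1qa), Ly86 (0.94 with C1qb) and P2ry6 (0.92 with C1qc), and their r with the mean of the macrophage markers, which include Aif1, was 0.86 to 0.90. C5ar1 (0.68), C3ar1 (0.66) and C4b (0.65) followed the macrophage mean less closely. Values were lower for Cfb (0.41), Serping1 (0.33) and C3 (0.28), and C2 did not follow it (-0.01). C3 and Serping1 had a higher r with the fibroblast mean, 0.40 and 0.39, the highest of the 10. The summed fibroblast markers had medians of 21223 CPM at 0 Gy and 14330 CPM at 20 Gy in primary tumours with isotype, where 1 of 10 was called lower, near the share of all genes called lower (6.64%). The closest genes to C3ar1 were Apobec1 (0.87), Slc11a1 (0.81) and Tlr13 (0.81), and those to C5ar1 were Cd200r1 (0.73), Pirb (0.72) and Cd38 (0.72).

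C3 and Serping1 made a pair of their own, with r = 0.73. The genes nearest to Serping1 were C1ra (0.81) and C1s1 (0.78), which encode the C1 proteases that its product inhibits, followed by C3. The nearest to C3 were Lbp (0.86), Chil1 (0.80) and Pacsin1 (0.80). C1ra and C1s1 were also called after 20 Gy with isotype in primary tumours, at 120 against 47.5 CPM (1.35, SE 0.35, adjusted p 0.00989) and 225 against 77.4 CPM (1.55, SE 0.48, adjusted p 0.0264). C2 and Cfb, neighbours on chromosome 17 with shared exon bases in Gm20547, had an r of only 0.30 with each other. Each had an r of 0.57 with the mean of the interferon response genes, the highest of the 10, and C2 was nearest to Shisa5 (0.69), Ifi203 (0.67) and Lgals3bp (0.63). Cfb was nearest to I830127L07Rik (0.78), Tmem173 (0.76) and Cndp2 (0.75), and C4b to C6 (0.77), Pigz (0.76) and Tbxas1 (0.75).

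**Figure D4:**
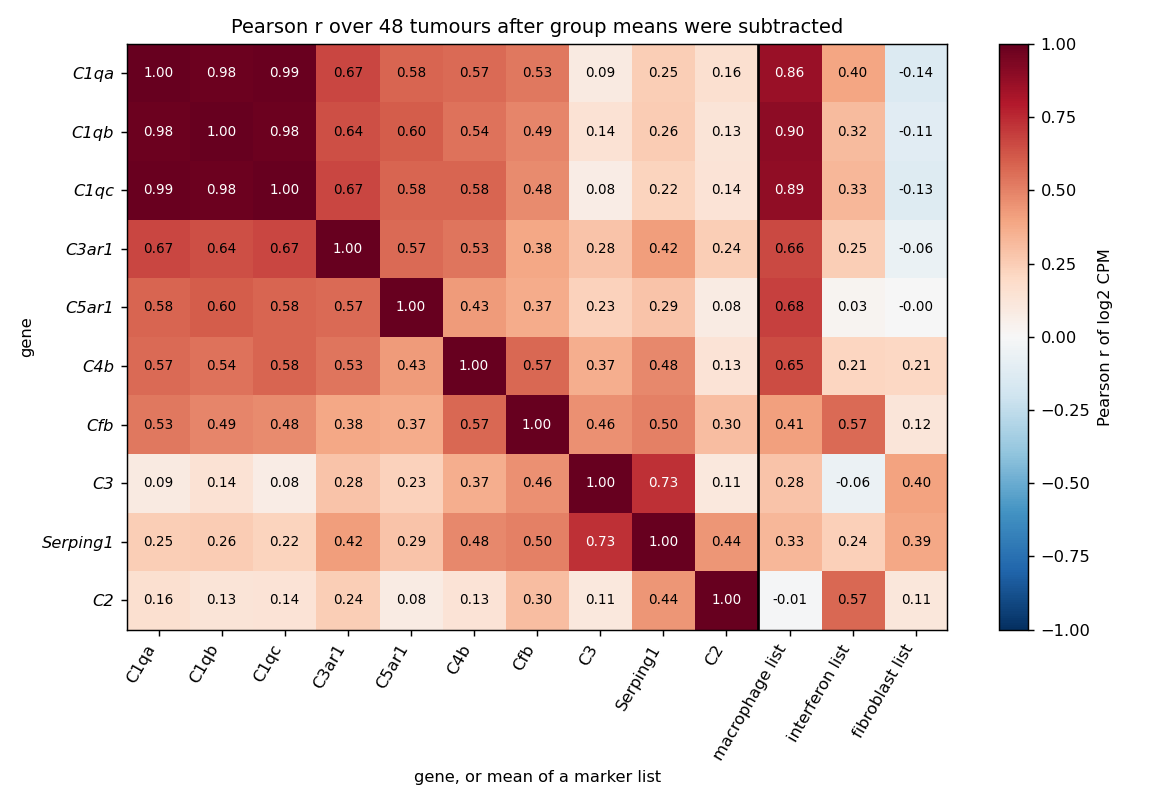
Pearson r of log2 TMM CPM between the complement genes, and between each gene and the mean of the macrophage, interferon response and fibroblast lists (right of the line), over 48 tumours after each group's mean was subtracted. The C1q chains form a block at 0.98 to 0.99, C3 and Serping1 pair at 0.73, and C2 has -0.01 with the macrophage list and 0.57 with the interferon list.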

How the data were processed

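Gene counts of 48 mouse tumours (36854 genes) were used as the authors deposited them: whole-number counts per gene, not normalized. The submitters' processing notes name Trimmomatic 0.36, STAR 5.5.4b, HTSeq and mm10; the annotation and the strand setting of the counting are not given in the sources used here. Groups came from the source labels, and genes from Ensembl identifiers matched to symbols.

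Counts were filtered (filterByExpr), scaled by TMM and tested with edgeR 4.0.16 (quasi-likelihood F test, R 4.3.3, limma 3.58.1). Allografts and primary tumours were fitted apart (17746 and 17770 genes), primary against allograft tumours per treatment, and interactions with tumour kind over all 48. P-values were adjusted by Benjamini-Hochberg over all genes, and a gene was called at an adjusted p below 0.05. SE is the fold change over the root of F. Log2 CPM used a prior count of 2. The scripts were tested on simulated data. DESeq2 1.42.0, other fits, covariates and leaving out each tumour were alternatives. Python 3.11.15, pandas 2.3.3, numpy 2.4.6 and matplotlib 3.10.9 were used.

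The 10 genes and the lists were chosen with earlier results of these data known. Every one of the 10 is named; of the other complement genes, up to 4 per direction with the smallest p among those called were eligible. C1ra and C1s1 are named with their test because they were nearest to Serping1, Clu because it was called between untreated tumour kinds. The 3 genes with the highest Pearson r, group means removed, are named per gene. Over 136 pairs of tumours of the same group, the chi-square per degree of freedom was 61.0 to 697, so no tumour repeats another.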

Additional observations from a re-analysis of the deposited data

Results flagged for a closer look

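Single tumours stood apart from their group in 9 of 80 combinations of gene and group on the log2 scale, where about 5% would by chance; 11 stood apart on the CPM scale and 6 on both. The C1q chains were high together in an untreated primary tumour (replicate 5), with C1qa at 848 CPM (next 491), C1qb at 756 (next 431) and C1qc at 653 (next 369). C1qa was at 1521 CPM in an allograft given 20 Gy with isotype (replicate 1, next 842). C3ar1 was at 102.4 CPM in an untreated allograft (replicate 3, next 60.2). C2 was low in an untreated allograft (replicate 4, 1.39 CPM, next 3.00) and in an unirradiated allograft with anti-PD-1 (replicate 1, 2.61 CPM, next 4.93). Serping1 was low in an unirradiated primary tumour with anti-PD-1 (replicate 6, 22.3 CPM, next 117.8) and in a primary tumour given 20 Gy with isotype (replicate 8, 129 CPM, next 286). The causes were not tested.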

How the results depend on the processing

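No called value changed sign. Apart from fits without a tumour, 1287 of 1350 values kept their side of the threshold, 48 lost a call and 15 gained one; 38 values that were called in neither fit changed sign. Without 1 tumour, 2328 of 2400 kept their side, and further uncalled values changed sign. Counts of called complement genes moved by over 1.5 times as follows, and the cause was not tested. For 20 against 0 Gy in allografts with isotype (5), they were 2 in a fit of all 48 tumours, 0 with the first digit of the title number as a covariate, 3 with the macrophage list and 2 with Xist. With anti-PD-1 (1) they were 4 by DESeq2, 0 with the macrophage list and 0 with only the groups compared. For the combination (8) they were 2 over all 48 tumours, 1 with the macrophage list and 3 with Xist. In primary tumours with anti-PD-1 (3) they were 5 over all 48 tumours and 5 by DESeq2, C3 and Serping1 being the genes gained in both. Leaving out 1 tumour gave 1 to 5, 1 to 4 and 3 to 8 in allografts (isotype, anti-PD-1, combination), 6 to 7, 3 to 4 and 6 to 10 in primary tumours, 1 to 1 between untreated tumour kinds and 0 to 0 elsewhere. Calls over all genes depended on the fit: in allografts 196 to 1530 with isotype (912), 1 to 1664 with anti-PD-1 (703) and 396 to 2626 for the combination (1714); in primary tumours 1815 to 3532 (2575), 822 to 2188 (1407) and 1384 to 3636 (2446); between tumour kinds 1198 to 2868 (1738) without treatment and 672 to 1875 (839) at 20 Gy. Without 1 tumour they were 294 to 1415, 184 to 1275 and 919 to 2320 in allografts, 1706 to 3091, 896 to 1928 and 1761 to 3223 in primary tumours, and 732 to 2187 and 260 to 1150 between kinds. The first digit could not be fitted between untreated kinds. No paired analysis was possible because the labels give no replicate numbers; those used here are names given in the order of the records. Depth was not varied; the lowest count of any of the 10 genes in any tumour was 33.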
